A study of Homo sapiens with 24 samples.

Results

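UCHL1, RAB34 and NXT2 are 3 of the 58735 Ensembl genes counted in HCT116 cells, a human colorectal carcinoma line. They were chosen by their day 4 values, as genes among the strongest switched on after 4 days of auxin, so those values are given here as a description, with no test. RNA from 8 groups of 3 libraries was sequenced, 24 libraries in all. The WT line carries OsTIR1, the auxin receptor that directs tagged proteins to degradation, under a Tet-inducible promoter, and has no degron tag. The UHRF1-AID line has a degron and the fluorescent protein mClover at the C-terminus of UHRF1, the DNMT1-AID line has a degron and mRuby2 at the N-terminus of DNMT1, and the UHRF1-AID/DNMT1-AID line, called the compound line here, has both. All of the tagged lines carry the same OsTIR1 as WT. Day 0 libraries were taken before auxin, and day 4 libraries after 4 days in 500 µM auxin and 2 µg/mL doxycycline, following a day in doxycycline and 20 µM auxinole, an inhibitor of OsTIR1. Whether day 0 cells had received doxycycline or auxinole is not stated, so the days may differ in these as well. WT cells received auxin as well. Per the study's methods, biological replicates of the tagged lines come from different clones, so the spread within a tagged group includes that between clones. The labels name no clone for a replicate number and give no separate cultures for WT, where p-values measure only the spread between these libraries.

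UHRF1 recognises hemimethylated DNA behind the replication fork and recruits DNMT1, which copies the methyl mark to the new strand. Genes whose promoters are kept silent by methylation can be transcribed when this maintenance fails. UCHL1 is a ubiquitin C-terminal hydrolase that is abundant in neurons, and its promoter is often methylated in colorectal and other carcinomas. RAB34 is a small GTPase of the Golgi and of early ciliary vesicles, with a role in formation of the primary cilium. NXT2 is an NTF2-like protein that pairs with NXF receptors in the export of mRNA from the nucleus, and its gene is X-linked.

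In the hg38 coordinates of the count tables UCHL1 (ENSG00000154277) lay at chr4:41256413-41268455 on the plus strand, RAB34 (ENSG00000109113) at chr17:28714281-28718429 on the minus strand and NXT2 (ENSG00000101888) at chrX:109535781-109544690 on the plus strand. All 3 matched the RefSeq promoter table of GRCh38.p14, which gave 7 windows of 300 bases, from 250 bases before to 50 bases after a start. The longest run before a start that lay outside every annotated exon of the gene and of the overlapping UCHL1-DT is shown for each, since methylation of CG is the mark that UHRF1 and DNMT1 maintain. Capitals mark CG in these runs, which were read 5′ to 3′ on the strand of the gene. The UCHL1 run is chr4:41256804-41256907, inside the span of the gene as annotated. The RAB34 run is chr17:28717869-28718118, before the third RefSeq start and inside the span of the longest transcript, and the NXT2 run is chrX:109535574-109535780.
UCHL1: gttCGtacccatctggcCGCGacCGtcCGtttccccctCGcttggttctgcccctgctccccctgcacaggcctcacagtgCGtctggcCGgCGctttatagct
RAB34: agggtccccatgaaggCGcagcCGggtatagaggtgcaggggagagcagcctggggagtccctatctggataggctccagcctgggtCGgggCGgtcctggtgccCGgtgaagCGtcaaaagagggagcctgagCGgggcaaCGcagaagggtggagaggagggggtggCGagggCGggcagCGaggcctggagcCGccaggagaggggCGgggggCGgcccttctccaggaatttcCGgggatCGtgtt
NXT2: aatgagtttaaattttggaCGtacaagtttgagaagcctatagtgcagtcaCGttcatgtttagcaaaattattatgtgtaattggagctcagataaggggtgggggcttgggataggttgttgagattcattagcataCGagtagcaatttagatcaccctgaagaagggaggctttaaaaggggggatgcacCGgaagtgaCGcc
The runs held 9, 16 and 5 CG. Counted on 1 strand, since CG reads the same on both, the UCHL1 window held 25 CG, and 32.0% of the 35116 windows in the table held at least as many. The 3 RAB34 windows held 12, 13 and 22 CG, with 53.1%, 51.7% and 37.7% of windows at or above those counts. The 3 NXT2 windows held 8, 8 and 21, with 60.7%, 60.7% and 39.5% at or above. The median window held 14 CG. The UCHL1 window and the RAB34 and NXT2 windows of 22 and 21 CG held more, and the other windows of RAB34 and NXT2 held fewer. The NXT2 run shown comes from a window of 8 CG. DNA methylation of these windows was not analysed here.

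Between 15824804 and 25073821 counts fell on genes in each library. In 1 alignment folder stood every day 0 library and UHRF1-AID at day 4, 15 in all, and the 9 other day 4 libraries, which alone hold counts of ERCC spike-ins, in another, so UHRF1-AID at day 4 and its WT control differ in line and in folder. The degron acts on protein, so the UHRF1 and DNMT1 transcripts do not check the labels: UHRF1 transcript was 73.7 ± 20.5 CPM in WT and 171 ± 24.6 CPM in UHRF1-AID cells at day 0, and DNMT1 transcript 143 ± 57.1 and 44.7 ± 25.4 CPM in WT and DNMT1-AID cells (SD, n = 3 each). CPM are TMM-scaled counts relative to library size, set over all 24 libraries. Calls are those of the edgeR quasi-likelihood test, with p adjusted by Benjamini-Hochberg over every gene tested, at an adjusted p below 0.05 and a log2 fold change (SE, standard error) of more than 1 in size.

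UCHL1 had no count in any of the 6 WT libraries, at day 0 or day 4. At day 4 its level was 15.9, 20.4 and 11.3 CPM in the 3 UHRF1-AID libraries. It was 1.53, 2.6 and 3.57 CPM in the DNMT1-AID libraries, from 26, 43 and 55 counts. In the compound line it was 57.4, 60.0 and 63.9 CPM. The libraries of the 3 tagged lines did not overlap, and all lay above every WT and day 0 library. Libraries apart from WT at day 4 were found for 37.8% (UHRF1-AID), 29.6% (DNMT1-AID) and 49.7% (compound) of all genes tested, and the choice of the genes bears on their place here. The share of all genes whose libraries stood apart between tagged lines was not counted. Nothing is therefore read from the separation of tagged lines, here or below for RAB34 and NXT2. Measured against the floor of 3 counts per WT library, UCHL1 at day 4 was at least 328-fold higher in compound cells, at least 86.3-fold in the UHRF1-AID line and at least 13.9-fold in the DNMT1-AID line. In the alignment folder of the UHRF1-AID libraries it was at least 102-fold higher than WT at day 0, and at least 112-fold higher than its own line then. From these bulk libraries, more cells with the transcript and more transcript per cell cannot be told apart. At day 0 the gene had 0 counts in each UHRF1-AID library, 0, 0 and 1 in DNMT1-AID and 1, 0 and 4 in compound libraries. These day 0 groups overlap one another, and at such counts the gene did not pass the filter on low counts, so it was not tested.

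**Figure D1:**
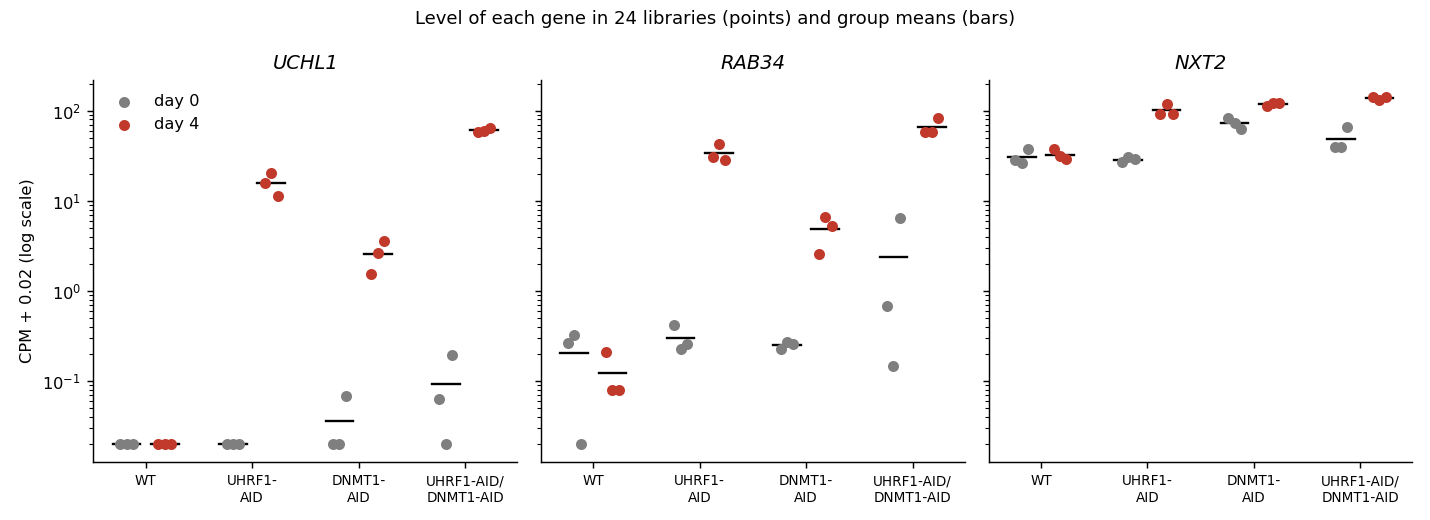
Level of UCHL1, RAB34 and NXT2 as CPM + 0.02 on a log axis in each of the 24 libraries (grey points day 0, red points day 4), by line, with a bar at each group mean. UCHL1 and RAB34 lie near the bottom in WT on both days and NXT2 near 30.9 CPM (day 0) and 32.6 CPM (day 4), while all 3 genes are highest in the compound line at day 4.

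RAB34 had 5, 6 and 0 counts in WT at day 0 and 3, 1 and 1 at day 4. At day 4 its level was 30.8, 42.4 and 28.7 CPM in UHRF1-AID libraries. It was 2.58, 6.65 and 5.26 CPM in DNMT1-AID libraries, and 58.5, 58.5 and 82.5 CPM in the compound line. Here too the 3 tagged lines did not overlap at day 4 and all lay above the WT libraries. The pooled ratio to WT at day 4 was 329 in UHRF1-AID (95% exact interval 141 to 1015), 46.9 in DNMT1-AID (19.8 to 146) and 653 in compound cells (280 to 2013). These intervals cover counting error only and are wide because the WT libraries together held 5 counts. Without WT replicate 1, which held 3 of the 5, the ratios were 559, 79.7 and 1110. Against the floor of 3 counts per library the ratios were 184, 26.2 and 361. UHRF1-AID cells at day 4 stood at 185 times WT day 0 and 120 times their own day 0, within 1 alignment folder.

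Before auxin RAB34 was not even across the compound line. Its day 0 libraries held 15, 3 and 147 counts, or 0.657, 0.130 and 6.39 CPM, and replicate 3 lay within the range of the DNMT1-AID libraries at day 4. UHRF1-AID had 8, 4 and 6 counts and DNMT1-AID 4, 5 and 5 at day 0, and both overlap WT. The same compound library had the highest day 0 counts of UCHL1 (4) and, among compound libraries, of NXT2 (1502 counts, 65.3 CPM, against 39.5 and 39.9). With no filter on low counts RAB34 had a log2 fold change of 3.59 (SE 1.90, adjusted p = 0.549, edgeR) between compound and WT cells at day 0, and that library held 147 of the 165 counts. By means, the compound line at day 4 stood at 27.8 times its day 0, and single libraries put the ratio anywhere from 9.14, lowest day 4 over highest day 0, to 637, highest over lowest.

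NXT2 differs from the other two in that it was expressed in WT cells, so it was not switched on from 0. Its level in WT was 28.5, 26.6 and 37.7 CPM at day 0 and 37.2, 31.5 and 29.2 CPM at day 4, and these groups overlap. At day 4 it was 93.0, 120 and 91.7 CPM in UHRF1-AID. In DNMT1-AID it was 114, 121 and 123 CPM, and in the compound line 141, 132 and 142 CPM. Every tagged library at day 4 lay above every WT library, the UHRF1-AID and DNMT1-AID libraries overlapped each other, and the compound libraries lay above both. Compound cells stood at 4.23 times WT by means, DNMT1-AID cells at 3.65 and UHRF1-AID cells at 3.11. Leaving out single libraries moved these between 4.02 and 4.55, 3.47 and 3.93, and 2.83 and 3.35.

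All 3 genes were among those called higher in each tagged line at day 4, where the share of tested genes called higher was 5.77% (UHRF1-AID), 2.29% (DNMT1-AID) and 9.21% (compound); the choice of the genes fixes this. By fitted fold change UCHL1 ranked 8, 8 and 3 and RAB34 61, 39 and 60 in these lines. NXT2, with the smallest fold changes of the 3, ranked 582, 178 and 825.

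The 3 genes had the same highest group and different orders below it. For UCHL1 the order of means was compound, UHRF1-AID and DNMT1-AID at day 4, with no overlap between neighbours, and then the 5 other groups, which overlap each neighbour. For RAB34 the same 3 groups led, but DNMT1-AID at day 4 overlapped compound cells at day 0 through replicate 3 of the latter. For NXT2 DNMT1-AID stood above UHRF1-AID at day 4 by mean, then came DNMT1-AID and compound cells at day 0, both above WT at day 4, WT at day 0 and UHRF1-AID at day 0. As a share of the compound line at day 4, UHRF1-AID reached 26.3% for UCHL1, 51.0% for RAB34 and 73.5% for NXT2. DNMT1-AID reached 4.25% for UCHL1, 7.26% for RAB34 and 86.2% for NXT2. UHRF1-AID exceeded DNMT1-AID by 6.19 times for UCHL1 and 7.03 times for RAB34, while for NXT2 the ratio was 0.853 with overlapping libraries. These ratios compare libraries aligned in different folders.

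The increments over WT in the 2 single lines added up to less than the increment in the compound line for UCHL1 and RAB34 and to more for NXT2. For UCHL1 they were 15.9 CPM (UHRF1-AID) and 2.57 CPM (DNMT1-AID), together 30.5% of the 60.4 CPM in compound cells. For RAB34 they were 33.9 and 4.73 CPM, together 58.1% of 66.4 CPM. For NXT2 they were 68.9 and 86.4 CPM, together 147% of 105 CPM. Among tagged lines at day 4 the UCHL1 and RAB34 replicates were least even in DNMT1-AID, where their level was lowest. The coefficient of variation in DNMT1-AID cells was 39.9% for UCHL1 and 42.8% for RAB34 but 4.07% for NXT2. In the same order it was 28.6%, 21.8% and 15.6% in UHRF1-AID and 5.44%, 20.9% and 4.03% in the compound line. Genes can be compared only roughly per kilobase of summed exon length, which covers all annotated exons and not only those of the transcripts present. On this scale the mean levels in the compound line at day 4 were 26.5 CPM per kb for UCHL1, 20.0 for RAB34 and 45.1 for NXT2. In DNMT1-AID cells they were 1.12, 1.45 and 38.8 CPM per kb, so by this measure NXT2 was the highest of the 3 in both lines.

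The genes were chosen by day 4 values, but whether day 0 served as the baseline of that choice is not known. Tests at day 0 may therefore not be independent of it. At day 0 NXT2 passed the filter on low counts and could be tested. It was 83.5, 73.0 and 62.7 CPM in DNMT1-AID libraries, all above the highest WT library. The log2 fold change against WT was 1.20 (SE 0.15, adjusted p = 0.329, edgeR), so it was not called. At an adjusted p under 0.05 only 1 gene of 13833 was called in that comparison, 0.00723% of those tested, while 711 had an unadjusted p under 0.05 and the libraries of 10.3% did not overlap. The call depended on the tool and filter, as the adjusted p was 2.51e-06 by DESeq2, 0.000207 with no filter on low counts and 0.00108 with all 24 libraries in 1 fit, each with a log2 fold change between 1.20 and 1.24. Over all alternatives with the full set of libraries the adjusted p lay between 2.51e-06 and 0.955, the latter with the replicate number as a block. How counts depended on exon length differed between libraries within both groups: the rank correlation over 15699 genes between exon length and a library's deviation from the mean was -0.270, -0.232 and 0.0926 in DNMT1-AID libraries and 0.276, 0.264 and -0.266 in WT libraries. With that trend removed the log2 fold change was 1.16 (adjusted p = 0.191, edgeR).

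In the compound line at day 0 NXT2 was 39.5, 39.9 and 65.3 CPM, again above every WT library, in a comparison where 29.1% of genes had libraries that did not overlap. The log2 fold change was 0.62 (SE 0.21, adjusted p = 0.153, edgeR), where 1.31% of genes were called. Without replicate 3 of the compound line it was 0.35. UHRF1-AID libraries, at 26.8, 30.3 and 29.1 CPM, overlapped WT, where 11.2% of genes had libraries apart, with a log2 fold change of -0.09 (SE 0.14, adjusted p = 0.947), and no gene was called in that comparison by edgeR (0% of 13894), with 512 at an unadjusted p under 0.05 and 7 called by DESeq2. Over all 12 day 0 libraries the DNMT1 tag went with a log2 fold change of 0.97 in NXT2 (SE 0.14, adjusted p = 0.0272, edgeR). This passed the threshold on p, as did 0.988% of 14472 genes, but stood just below that on fold, and 0.214% of genes were called. With the replicate number as a block the adjusted p was 0.0705, and leaving out UHRF1-AID replicate 2 or compound replicate 1 or 2 took the log2 value to 1.01, 1.04 and 1.05, past both thresholds. Over the 12 fits that left out 1 library each the adjusted p lay between 0.00871 and 0.0865 (edgeR). The UHRF1 tag went with -0.34 (SE 0.14, adjusted p = 0.234, edgeR; no gene called by edgeR, 2747 at an unadjusted p under 0.05). The DNMT1 tag effect with the UHRF1 tag minus that without it was -0.48 (SE 0.26, adjusted p = 0.999, edgeR), a test added after the values were seen. From its own day 0, NXT2 stood 3.53 times higher at day 4 in UHRF1-AID, 1.63 times in DNMT1-AID and 2.86 times in the compound line, with no overlap between days, and 1.05 times in WT, with overlap. Libraries apart between days were found for 60.2%, 54% and 71.8% of all genes tested in these 3 lines, and nothing is read from the place of NXT2 among them.

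Few relatives and partners of the 3 genes passed the test at day 4, where higher and lower mean against WT of that day and not against the same line at day 0. Lists of genes by function, without the 3 genes, held 8 called genes in the compound line at day 4, 5 in UHRF1-AID and 0 in DNMT1-AID. Lower calls took up 1.22%, 0.28% and 2.49% of all tested genes in these lines, beside the shares called higher given above. In DNMT1-AID DESeq2 also called none of the list genes, and 3280 genes had an unadjusted p under 0.05. The 5 calls in UHRF1-AID depended on single libraries: 2 were left without WT replicate 1, 1 without WT replicate 2, 2 without UHRF1-AID replicate 1 and 1 without UHRF1-AID replicate 3. In the compound line the count lay between 7 and 9 when any 1 library was left out.

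Among 22 other deubiquitinases of the UCH, OTU and MJD families, 0 were called higher and 1 lower of 20 tested in UHRF1-AID, none of 20 in DNMT1-AID, and 1 higher and 1 lower of 21 in the compound line. Their median log2 fold changes were 0.08, -0.06 and -0.15, where those of all genes were 0.03, 0.0017 and 0.02. UCHL3, the closest relative of UCHL1, was lower in UHRF1-AID than in WT at day 4 with a log2 fold change of -1.05 (SE 0.29, adjusted p = 0.0342, edgeR), a call that was lost without any 1 of 5 libraries. Its mean was 1.67 CPM at day 0 and 1.57 CPM at day 4 in UHRF1-AID cells, and 1.68 and 3.22 CPM in WT cells. OTUD6A, an OTU family enzyme, had 0 counts in the WT and DNMT1-AID libraries at day 4, 8, 15 and 9 in UHRF1-AID and 23, 41 and 65 in the compound line, where it was at least 14.3-fold higher (adjusted p = 2.99e-06, edgeR). OTUD3 was lower there with a log2 fold change of -1.08 (SE 0.24, adjusted p = 0.00123), a call lost without WT replicate 2 or compound replicate 1. UCHL5, a deubiquitinase of the proteasome and the INO80 complex, and BAP1, the nuclear enzyme that removes ubiquitin from histone H2A, had log2 fold changes between -0.18 and 0.27 in the 3 lines and were not called.

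UCHL1 is also used as a marker of neurons, and 22 other neuronal genes were looked at. Of these 7, 7 and 8 passed the filter in UHRF1-AID, DNMT1-AID and compound cells, with 0, 0 and 1 called higher and 0, 0 and 1 lower and median log2 fold changes of 0.22, -0.19 and 0.22. NEFH, the heavy neurofilament chain, had 12, 14 and 17 counts in the compound line and 0 in WT, at least 4.77-fold higher. SCG2, a secretory granule protein, was lower there with a log2 fold change of -1.67 (SE 0.19, adjusted p = 9.40e-07, edgeR). ELAVL2, ELAVL4 and DCX had no count in any library.

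Among 62 other RAB GTPases 50, 50 and 51 were tested, with 1, 0 and 2 called higher and 1, 0 and 1 lower in UHRF1-AID, DNMT1-AID and compound cells, and median log2 fold changes of 0.07, -0.03 and -0.04. RAB26, a RAB of secretory granules, was lower in both lines with the UHRF1 tag, with log2 fold changes of -1.07 (SE 0.20, adjusted p = 0.00636, lost without WT replicate 2 or UHRF1-AID replicate 1) and -1.41 (SE 0.15, adjusted p = 2.31e-07, edgeR). RAB15, of the recycling endosome, was higher in UHRF1-AID with 1.25 (SE 0.31, adjusted p = 0.0217), lost without WT replicate 1 or UHRF1-AID replicate 3. RAB42 and RAB32 had 0 counts in WT at day 4 and 36, 25 and 27 and 16, 25 and 43 counts in the compound line, which puts RAB42 at least 9.78-fold higher and RAB32 at least 9.28-fold. RAB32 acts in melanosome and mitochondrial traffic. RAB36, the closest relative of RAB34, and RAB23, a RAB of Hedgehog signalling, had log2 fold changes between -0.50 and 0.27 and were not called.

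RAB34 acts early in cilium formation, and of 46 other genes of cilium formation and Hedgehog signalling 42, 42 and 43 were tested, with 1, 0 and 1 called higher and 0, 0 and 2 lower, and median log2 fold changes of 0.10, -0.03 and -0.23. TTBK2, the kinase that starts ciliogenesis at the mother centriole, was higher in UHRF1-AID than in WT at day 4 with a log2 fold change of 1.07 (SE 0.31, adjusted p = 0.0404, edgeR), at 16.0, 6.50 and 9.74 CPM in its libraries, and the call was lost without replicate 1 or 2 of WT or 1 or 3 of UHRF1-AID. From day 0 to day 4 its mean went from 11.9 to 10.7 CPM in UHRF1-AID cells and from 10.5 to 5.05 CPM in WT cells. EHD3, a membrane-shaping ATPase of the ciliary vesicle, had 0 counts in WT and 19, 12 and 25 in the compound line, at least 6.19-fold higher. IFT80, an intraflagellar transport protein, was lower there with -1.38 (SE 0.17, adjusted p = 2.20e-06), as was GLI1, the transcription factor and target of Hedgehog signalling, with -2.10 (SE 0.38, adjusted p = 0.000188).

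For NXT2, 31 other genes of the NXF and NXT families and of mRNA export were taken, of which 25, 24 and 24 were tested, with 1, 0 and 0 called higher, none lower, and median log2 fold changes of -0.18, 0.0022 and -0.14. At an unadjusted p under 0.05 there were 6669 genes in the compound line, where DESeq2 gave 8 calls over the 4 functional lists as edgeR did. NXF3, a tissue-restricted NXF protein, was higher in UHRF1-AID, where it had 26, 22 and 50 counts against 8, 1 and 4 in WT, with a log2 fold change of 2.53 (SE 0.58, adjusted p = 0.0169, edgeR), a call that was lost without WT replicate 2 or UHRF1-AID replicate 3. NXT1, the paralogue of NXT2 that pairs with NXF1 in most cells, had log2 fold changes of -0.53, 0.20 and -0.07 in UHRF1-AID, DNMT1-AID and compound cells and was not called, and NXF1, the main export receptor, had -0.18, -0.17 and -0.19. NXF2 had at most 2 counts at day 4, and NXF2B and NXF5 had none. Near-identical copies such as NXF2 and NXF2B can share reads, so their counts are uncertain.

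Markers of other cells were counted beside these values. The 12 colon epithelial markers all had over 3 counts in some library and summed to between 3957 and 7105 CPM at day 0. At day 4 they summed to 7021 to 7208 CPM in WT libraries and 7168 to 8230 CPM in DNMT1-AID. In UHRF1-AID they summed to 5679 to 6879 CPM and in the compound line to 5080 to 5773 CPM. Of 8 and 9 tested in UHRF1-AID and compound cells 2 and 4 were called higher and 0 lower, with KRT20, CDX1, CDX2 and LGALS4 called in the compound line. KRT19 and KRT8 were lower there on p alone, with log2 fold changes of -0.68 (SE 0.11, adjusted p = 4.24e-05, edgeR) and -0.28 (SE 0.10, adjusted p = 0.0366, edgeR). The 10 fibroblast markers summed to between 3.32 and 8.78 CPM in WT libraries at day 4, between 9.61 and 14 CPM in DNMT1-AID libraries, between 9.89 and 16.3 CPM in UHRF1-AID libraries and between 24.5 and 26.8 CPM in compound libraries. COL1A1 and THY1 were called higher in the compound line, and THY1 also in UHRF1-AID, with 114, 100 and 88 counts against 0 in each WT library (adjusted p = 0.000134, edgeR). FAP and POSTN were at 0 in all 24 libraries, and COL1A2, COL3A1 and PDGFRA had at most 3 counts. The 8 leukocyte markers summed to at most 3.68 CPM in any library, CD3E, CD68 and NKG7 had at most 3 counts, and CD14 was called higher in the compound line. Leukocyte sums were 0.0638 to 0.481 CPM in WT, 1.21 to 2.83 in UHRF1-AID, 0.725 to 1.10 in DNMT1-AID and 2.03 to 3.68 in compound libraries at day 4. At day 4 the fibroblast and leukocyte sums ran lowest in WT and highest in the compound line, as did UCHL1 and RAB34. Between these ends they differed from the 2 genes. The fibroblast sums of UHRF1-AID and DNMT1-AID libraries overlapped, and so did the leukocyte sums of UHRF1-AID and compound libraries. The part of such cells in the levels of UCHL1 and RAB34 was not tested. Neuronal sums were 118 to 131 CPM in WT, 159 to 222 in UHRF1-AID, 109 to 132 in DNMT1-AID and 131 to 148 in compound libraries.

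Of the genes within 100000 bases of the 3, 1 was called in 1 line. UCHL1-DT, which overlaps UCHL1 by 315 bases on the opposite strand, had no count in any library. The nearest tested genes were APBB2, which starts 39699 bases before UCHL1, and LIMCH1, 91152 bases beyond its end. LIMCH1, an actin-binding protein, was higher in UHRF1-AID than in WT with a log2 fold change of 1.25 (SE 0.24, adjusted p = 0.00708, edgeR), and it had -0.23 in DNMT1-AID and 0.45 in the compound line, where it was not called. Its mean went from 6.90 to 8.80 CPM in UHRF1-AID cells and from 6.27 to 3.66 CPM in WT cells between the days. Of 23 genes within 100000 bases of RAB34, 8 were tested in some line, with log2 fold changes between -0.99 and 0.91, and 0 were called in either direction in 23 tests. RPL23A, a ribosomal protein gene that starts 964 bases away in the opposite direction, had the lowest of these, -0.99 (SE 0.12, adjusted p = 0.000657, edgeR) in UHRF1-AID, just inside the threshold on fold, and -0.22 and -0.19 in DNMT1-AID and compound cells. SUPT6H, the nearest tested gene on the other side, had 0.61, 0.78 and 0.81, none called. On p alone SDF2 was higher in DNMT1-AID (0.47, adjusted p = 0.0203, edgeR) and compound cells (0.82, adjusted p = 4.75e-06, edgeR). FAM222B was higher in compound cells (0.91, adjusted p = 0.0378, edgeR). BLTP2 was lower in compound cells (-0.43, adjusted p = 0.00434, edgeR). TLCD1 was lower in UHRF1-AID (-0.59, adjusted p = 0.0474, edgeR) and compound cells (-0.47, adjusted p = 0.0135, edgeR). Near NXT2 ACSL4 alone was tested, 79554 bases away, with log2 fold changes of 0.23, -0.17 and -0.13.

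Over the 24 libraries the genes with the most similar pattern were found by Pearson's r of log2 CPM among 15699 genes, as a description, since the libraries share lines and days. For UCHL1 they were MAGEA8, MAEL, CTCFL, PNMA5 and PPP1R14A, with r between 0.990 and 0.992. MAGEA8, MAEL and CTCFL are cancer/testis genes, and PPP1R14A is an inhibitor of myosin phosphatase. For RAB34 they were MAGEA1, MAGEA9, CTAG2, PAGE1 and RCN3, with r between 0.975 and 0.983, of which the first 4 are X-linked cancer/testis genes. These 10 genes had 0 counts in WT at day 4. In each of them replicate 3 of the compound line had the most counts of the 3 compound libraries at day 0, as for RAB34. It had 38 counts against 2 and 1 for MAGEA1, 51 against 14 and 0 for CTAG2 and 28 against 3 and 3 for RCN3. All were chosen for likeness over libraries that include this one, so their counts there are no separate evidence. For NXT2 they were SMIM22, SULT1A1, QPRT, ALG1L3P and SPATC1L, with r between 0.915 and 0.941. These 5, chosen the same way, also had their most counts among compound libraries at day 0 in replicate 3. SULT1A1, a phenol sulfotransferase, was 2.50 ± 0.22 CPM in WT and 8.74 ± 2.39 CPM in DNMT1-AID cells at day 0 and 26.9 to 37.2 CPM, by group mean, in tagged lines at day 4. UCHL1 and RAB34 had r = 0.964 with each other, and NXT2 had 0.848 with UCHL1 and 0.832 with RAB34. Over the 8 group means in place of the libraries, 1, 1 and 0 of these 5 genes stayed among the 5 highest for UCHL1, RAB34 and NXT2.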

How the data were processed

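Polyadenylated RNA was sequenced by the authors from 4 HCT116 lines at day 0 and day 4 of auxin, in 3 libraries a group. Per the methods of the study, reads were trimmed with Trimmomatic, aligned to hg38 with STAR and assigned to genes with featureCounts. What they deposited are raw read counts for 58735 Ensembl genes. Strand and multi-mapping settings are not given in the sources used here. The 92 ERCC sequences, with 0.891% to 1.65% of counts in 9 libraries and none in 15, were left out.

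Each tagged line was compared with WT of the same day by edgeR 4.0.16 in R 4.3.3 (filterByExpr, TMM, robust quasi-likelihood test, Benjamini-Hochberg adjustment over all genes tested), and the tags were fitted together over the 12 day 0 libraries. Calls needed an adjusted p below 0.05 and a log2 fold change of more than 1 in size. DESeq2 1.42.0, other scaling and filters, a replicate block and leaving out each library were alternatives. The fits were tested on simulated data. Library depth of 15824804 to 25073821 counts sets the precision. The 3 genes and the gene lists were chosen with earlier results of these data known. List genes were named when called, up to 6 a list by smallest p, beside close relatives of the 3 genes, and the 5 genes of highest r were named for each. Replicate numbers did not pair lines with WT, as the correlations of same-numbered libraries' deviations lay between -0.716 and 0.315. Between days they lay between -0.433 and 0.226, and in UHRF1-AID all 3 pairs were over 0.1 (0.226, 0.144 and 0.122), so that comparison was also fitted with the block.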

Additional observations from a re-analysis of the deposited data

How the results depend on the processing

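Measured against the fixed floor of 3 counts per WT library, the levels of UCHL1 and RAB34 at day 4 kept their direction under other scaling and without each library. They also stayed within the replicate spread. This floor hardly depends on which WT library is left out, and the RAB34 ratios of pooled counts, given below, moved more. For NXT2 the ratio to WT ranged from 3.47 to 3.93 in DNMT1-AID and from 4.02 to 4.55 in the compound line, with both ends reached without WT replicate 3 or 1. At day 0, the NXT2 log2 fold change in DNMT1-AID against WT passed both thresholds with no filter on low counts (1.20), with all 24 libraries in 1 fit (1.24) and by DESeq2 (1.21), and ranged from 1.11 to 1.34 when 1 library was left out. In UHRF1-AID it was -0.09 and turned to 0.039 without WT replicate 3, within a range of -0.18 to 0.039. For the DNMT1 tag it ranged from 0.88 to 1.05.

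With the replicate number as a block, the NXT2 log2 fold change was 1.21 (adjusted p = 0.955, edgeR) in DNMT1-AID and 0.96 (adjusted p = 0.0705, edgeR) for the DNMT1 tag, where the numbers do not pair lines with WT. Called genes of the 4 functional lists, 5 in UHRF1-AID, numbered 4 with the replicate block, 8 with no filter, 8 with all libraries in 1 fit, 16 with no minimum fold change and 1 to 6 without 1 library. Against UHRF1-AID at day 0 in the same alignment folder, an alternative chosen after seeing the data, there were 15, and 15 with the replicate block. Of all genes tested, 12.1% were called higher and 9.82% lower in that comparison without the block. With no minimum fold change they numbered 2 in DNMT1-AID and 51 in the compound line. Under that rule 10.9% of all genes tested were higher and 6.57% lower in UHRF1-AID. The shares were 5.02% and 2.93% in DNMT1-AID and 20.4% and 17.8% in the compound line. Nothing is read from the list counts beside these shares. The causes were not tested. The RAB34 ratio of pooled counts to WT ranged from 272 to 559 in UHRF1-AID, 37.7 to 79.7 in DNMT1-AID and 539 to 1110 in the compound line without 1 library, highest without WT replicate 1. Of 611 counts of single lists and likenesses compared, 520 stayed within 1.5 times and 91 moved. Exon length offsets were also chosen after seeing the data. With 0 to 6 counts of UCHL1 and RAB34 in WT libraries, depth limits their fold changes. For RAB34 in the compound line at day 0 the spread between libraries (15, 3 and 147 counts) limits the test.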
